A study of Homo sapiens with 6 samples.

Results

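The 10 genes described here encode the enzymes that hydroxylate and crosslink collagen, the collagen chaperone and an enhancer of procollagen processing: P4HA1, P4HA2, PLOD1, PLOD2, PLOD3, SERPINH1, PCOLCE, LOX, LOXL1 and LOXL2. They were chosen by name, as all probe sets whose only gene symbol was one of these, and 15 of the 22277 probe sets on the array belonged to them, or 10 of 11963 genes with a probe set of their own. These genes and the lists used below were chosen with earlier results of these data known. Their counts beside all tested genes are therefore descriptive. The cells were U87, an established human glioblastoma line. The IRE1dn group (3 arrays) carried a dominant negative transgene of IRE1alpha, the endoplasmic reticulum stress sensor encoded by ERN1, and came from the clone labelled U87 IRE1.NCK DN (U87dn). The ctrl group (3 arrays) consisted of U87 ctrl clones carrying the matching empty plasmid. Both groups were kept for 16 h in DMEM with 10% FBS and glutamine before RNA was taken. The sources used here name neither the promoter of the transgene nor the clone behind each ctrl array, so a difference due to the transgene and one due to the choice of clone cannot be told apart. The labels do not state that replicates were separate cultures, and p-values therefore measure the spread between these arrays, which may be technical.

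Collagen chains are hydroxylated in the endoplasmic reticulum before they fold. Prolyl 4-hydroxylases modify proline residues, which keeps the triple helix stable at body temperature, and lysyl hydroxylases modify lysine residues that later carry sugars and crosslinks. Both enzyme families need oxygen, iron, 2-oxoglutarate and ascorbate, and several of their genes are known targets of the hypoxia-inducible factors (HIF). The chaperone HSP47 escorts the folded procollagen, PCOLCE speeds removal of its C-terminal propeptide, and the copper-dependent lysyl oxidases start the crosslinking of fibrils outside the cell. Glioblastoma cells in culture can make interstitial collagen, which normal brain tissue largely lacks.

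Most of these genes were higher in IRE1dn cells. Of the 10, 8 rose and 0 fell at an adjusted p below 0.05 in limma, a linear model with a shared estimate of the spread, fitted to all 7178 genes above a filter on dim signals (8 and 0 also at an unadjusted p below 0.05). Among all tested genes 34.4% passed in either direction, 17.9% as higher and 16.5% as lower in IRE1dn cells. The median log2 change of the 10 genes was 1.32, against 0.01 over all tested genes. LOX and PCOLCE changed most, P4HA2 and P4HA1 rose by 1.71 and 1.53, LOXL1 and LOXL2 rose by just over 1 on the log2 scale, PLOD1 and PLOD2 rose with weaker statistical support, and SERPINH1 and PLOD3 did not pass. Changes are IRE1dn minus ctrl on the scale log2(signal + 1.75), with 1.75 set to the 20th percentile of the whole table, and each is given with its standard error (SE). The same fit supplied all adjusted p-values of genes, by the Benjamini-Hochberg method over the 7178 genes. In a bulk culture, more cells of one kind and more RNA per cell cannot be told apart.

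**Figure D1:**
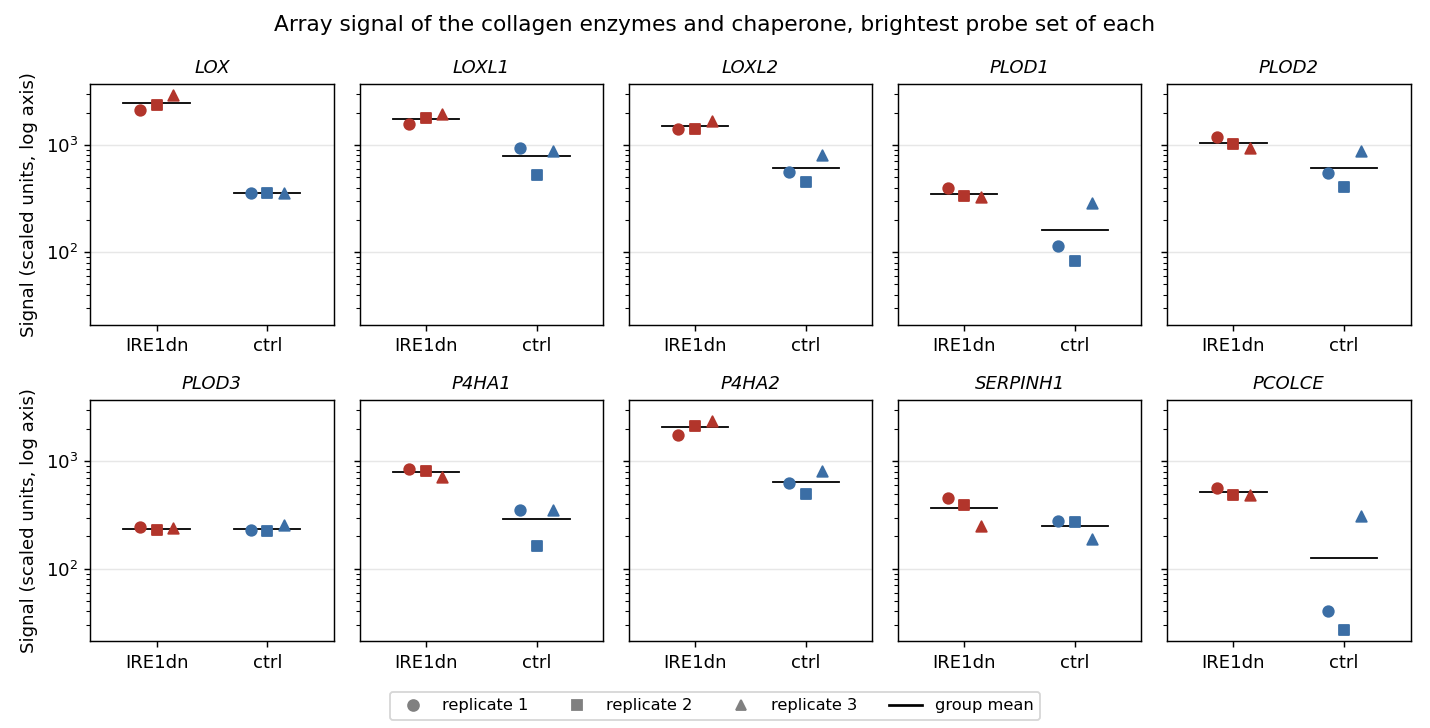
Signal of the brightest probe set of each gene on every array, in scaled units on a log axis, with IRE1dn arrays in red and ctrl arrays in blue; symbols mark replicates and lines the group means. The IRE1dn arrays lay above all ctrl arrays for 8 genes and overlapped them for PLOD3 and SERPINH1.

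The upstream sequences are shown because 8 of these genes rose together and several are textbook HIF targets. RefSeq windows (GRCh38.p14) were listed for 9 of the 10 genes, all but LOXL2, and the 250 bases before the start were searched on both strands for the HIF core in its forms ACGTG and GCGTG. The windows of 3 genes that rose and hold ACGTG, of PCOLCE, which rose and holds GCGTG, and of PLOD3, which did not pass, read as follows, 5′ to 3′ on the coding strand with matches to either form in capitals.
LOX chr5:122078260-122078509 (- strand): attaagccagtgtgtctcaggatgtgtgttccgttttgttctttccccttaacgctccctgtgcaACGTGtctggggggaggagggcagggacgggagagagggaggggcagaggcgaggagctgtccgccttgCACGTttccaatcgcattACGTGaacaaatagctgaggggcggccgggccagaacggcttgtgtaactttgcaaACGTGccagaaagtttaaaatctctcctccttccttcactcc
PLOD2 chr3:146161185-146161434 (- strand): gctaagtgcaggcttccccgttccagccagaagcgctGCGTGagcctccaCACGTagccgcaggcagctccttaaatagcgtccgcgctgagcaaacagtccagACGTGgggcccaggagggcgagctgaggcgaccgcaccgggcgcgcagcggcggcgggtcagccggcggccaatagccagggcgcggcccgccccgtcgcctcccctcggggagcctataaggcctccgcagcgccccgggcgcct
P4HA1 chr10:73096867-73097116 (- strand): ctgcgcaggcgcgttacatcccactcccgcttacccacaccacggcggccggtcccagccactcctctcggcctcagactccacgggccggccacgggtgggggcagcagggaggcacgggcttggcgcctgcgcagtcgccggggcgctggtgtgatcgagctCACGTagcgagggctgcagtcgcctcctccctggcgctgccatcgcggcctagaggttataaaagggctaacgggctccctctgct
PCOLCE chr7:100602113-100602362 (+ strand): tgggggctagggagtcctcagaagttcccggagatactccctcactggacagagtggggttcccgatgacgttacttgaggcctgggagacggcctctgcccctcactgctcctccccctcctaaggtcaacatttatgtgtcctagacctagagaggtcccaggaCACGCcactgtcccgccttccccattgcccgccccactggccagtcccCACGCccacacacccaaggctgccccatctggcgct
PLOD3 chr7:101217582-101217831 (- strand): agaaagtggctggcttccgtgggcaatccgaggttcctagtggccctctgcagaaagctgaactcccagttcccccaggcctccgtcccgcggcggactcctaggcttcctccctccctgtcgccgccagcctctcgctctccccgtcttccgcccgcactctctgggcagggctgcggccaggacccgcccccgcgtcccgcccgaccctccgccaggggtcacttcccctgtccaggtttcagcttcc
LOX held 4 matches to ACGTG, which began at -185, -116, -98 and -42 from the start, PLOD2 held 2, at -200 and -146, and P4HA1 held 1, at -86. GCGTG began at -213 in PLOD2, at -84 and -36 in PCOLCE and at -68 and -25 in PLOD1. ACGTG occurs in 18.5% and GCGTG in 32.2% of all 35116 RefSeq windows of this length, so a match is common. LOXL1, P4HA2 and PLOD3 held neither form, and of these LOXL1 and P4HA2 rose. LOX has 3 listed starts and SERPINH1 has 2, and the first listed is used above. SERPINH1 held neither form before its first start, and 1 match to ACGTG and 2 to GCGTG before its second. These are letters in a short window and not measured binding. The windows printed were picked by match and by change, so they cannot show a link between the 2.

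Both measured catalytic subunits of prolyl 4-hydroxylase rose, while P4HA3 had no probe set of its own. P4HA1, the widely expressed alpha subunit, had signals of 842.5, 821 and 718 units in IRE1dn cells, against 349.7, 164 and 355 units in ctrl cells (probe set 207543_s_at). All IRE1dn arrays lay above all ctrl arrays, and ctrl array 2 was the lowest of the 6. The means were 794 ± 66.3 units in IRE1dn cells and 289.7 ± 109 units in ctrl cells (SD, n = 3 each), and P4HA1 rose by 1.53 on the log2 scale (SE 0.28; limma adjusted p = 0.0032). P4HA2, the second alpha subunit, gave 1769, 2126 and 2383 units in IRE1dn cells and 635, 498 and 812 units in ctrl cells (202733_at). The groups were clearly apart, and ctrl array 2 was again the lowest. The log2 change was 1.71 (SE 0.20; limma adjusted p = 0.00034), from means of 2093 ± 308 and 649 ± 157 units (IRE1dn and ctrl, SD, n = 3 each).

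Of the lysyl hydroxylases, PLOD2 and PLOD1 rose and PLOD3 did not pass. PLOD2, which hydroxylates the lysines of collagen telopeptides and so sets the kind of crosslink, was measured by 2 probe sets that both rose. On 202620_s_at it had 1178, 1014 and 939.6 units in IRE1dn cells, against 544, 405 and 869.7 units in ctrl cells. Ctrl array 3 came close to the lowest IRE1dn array without reaching it. The change on this probe set, the brighter of the pair over all arrays, was 0.85 (SE 0.25; limma adjusted p = 0.027). On 202619_s_at PLOD2 had 1027, 1241 and 1106 units in IRE1dn cells and 462, 248 and 598 units in ctrl cells, a wider gap. That change was 1.45 (SE 0.28; adjusted p = 0.0042 in a limma fit over 12069 probe sets).

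PLOD1, which acts on lysines within the helix, gave 393, 331 and 328 units in IRE1dn cells and 115, 83.5 and 288 units in ctrl cells (200827_at). The IRE1dn arrays were all higher, but ctrl array 3 was much closer to them than to the other ctrl arrays. The log2 change was 1.30 (SE 0.38; limma adjusted p = 0.024). PLOD3, which can also attach galactose and glucose to hydroxylysine, measured 244, 228 and 239 units in IRE1dn cells and 229, 225 and 255 units in ctrl cells (202185_at). The groups overlapped throughout. Its log2 change was 0.01 (SE 0.16; 95% interval -0.34 to 0.35; limma adjusted p = 0.98), and the sign of that value turned with the scaling. The calls of PLOD1 and of PLOD2 on its brighter probe set ended when any 1 array other than ctrl array 3 was left out (limma adjusted p of 0.059 to 0.079 for PLOD1 and 0.059 to 0.091 for PLOD2), whereas 202619_s_at of PLOD2 passed under all 15 alternatives run for it.

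SERPINH1 encodes HSP47, the collagen-specific chaperone of the endoplasmic reticulum. It had 454, 393 and 252 units in IRE1dn cells, against 280.0, 274 and 191 units in ctrl cells (207714_s_at). IRE1dn array 3 fell inside the ctrl range and the other two lay above it. The log2 change was 0.54 (SE 0.25; 95% interval -0.01 to 1.09; limma adjusted p = 0.12). SERPINH1 passed without IRE1dn array 3 (0.79; limma adjusted p = 0.048) and with the replicate number as a block (limma adjusted p = 0.046). In the fit over probe sets it missed the threshold in both cases (limma adjusted p = 0.0505 without that array and 0.0532 with the block). IRE1dn array 3 had a ratio of 3′ to 5′ ACTB signal of 1.64, against 1.09 to 1.21 on the other arrays. Its ratio for GAPDH was 0.94, against 0.87 to 0.92 on the others. Whether RNA quality plays a part was not tested.

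PCOLCE, which enhances the procollagen C-proteinase BMP1, had 568, 484 and 489 units in IRE1dn cells and 39.98, 26.7 and 312 units in ctrl cells (202465_at). The ctrl arrays disagreed: array 3 was several times brighter than arrays 1 and 2, and still lay below every IRE1dn array. The log2 change was 2.84 (SE 0.71; 95% interval 1.26 to 4.42; limma adjusted p = 0.013), from means of 514 ± 47.1 units in IRE1dn cells and 126 ± 161 units in ctrl cells (SD, n = 3 each). It was 3.90 without ctrl array 3 and 2.17 without ctrl array 2, and the call ended without ctrl array 1 (2.45; limma adjusted p = 0.053).

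LOX, the founding lysyl oxidase, had the smallest spread among ctrl arrays when each gene was read on its brightest probe set. On the log2 scale the ctrl SD of LOX was 0.10 on 204298_s_at and 0.31 on 213640_s_at. Its brightest probe set, 215446_s_at, had 2123, 2358 and 2938 units in IRE1dn cells, against 353, 353 and 357 units in ctrl cells. The groups were far apart, and the ctrl arrays were almost identical on this probe set. The means of 2473 ± 419 and 354 ± 2.04 units (IRE1dn and ctrl, SD, n = 3 each) stood behind a rise of 2.78 on the log2 scale (SE 0.16; limma adjusted p = 4.8e-06). On 204298_s_at LOX had 1992, 2042 and 2401 units in IRE1dn cells and 286, 256 and 292 units in ctrl cells, a change of 2.94 (SE 0.15; adjusted p = 2.7e-06 over 12069 probe sets in limma). On 213640_s_at it had 782, 593 and 544 units in IRE1dn cells and 41.1, 57.0 and 62.3 units in ctrl cells, a change of 3.54 (SE 0.22; limma adjusted p = 7.0e-06). On 213640_s_at IRE1dn array 1 was the highest, while on the others IRE1dn array 3 was.

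LOXL1, known for its part in elastic fibre assembly, gave 1551, 1766 and 1918 units in IRE1dn cells and 935, 520.4 and 884 units in ctrl cells (203570_at). No ctrl array reached the IRE1dn range, and ctrl array 2 was the lowest of all. The log2 change was 1.201 (SE 0.22; limma adjusted p = 0.0034). LOXL2, which crosslinks collagen IV among other substrates, had 1419, 1401 and 1659 units in IRE1dn cells and 554, 451 and 809 units in ctrl cells on 202998_s_at. The IRE1dn arrays were well above the ctrl arrays here, with a change of 1.34 (SE 0.21; limma adjusted p = 0.0015). On the dimmer 202997_s_at LOXL2 had 347, 162 and 134 units in IRE1dn cells and 66.3, 74.0 and 159 units in ctrl cells. The groups overlapped on that probe set, with a value of 1.08 (SE 0.40; limma adjusted p = 0.062 over 12069 probe sets). The dimmest LOXL2 probe set, 202999_s_at, lay between 0.257 and 1.22 units on all 6 arrays, under the filter level of 13.0 units, and gave no usable measurement.

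**Figure D2:**
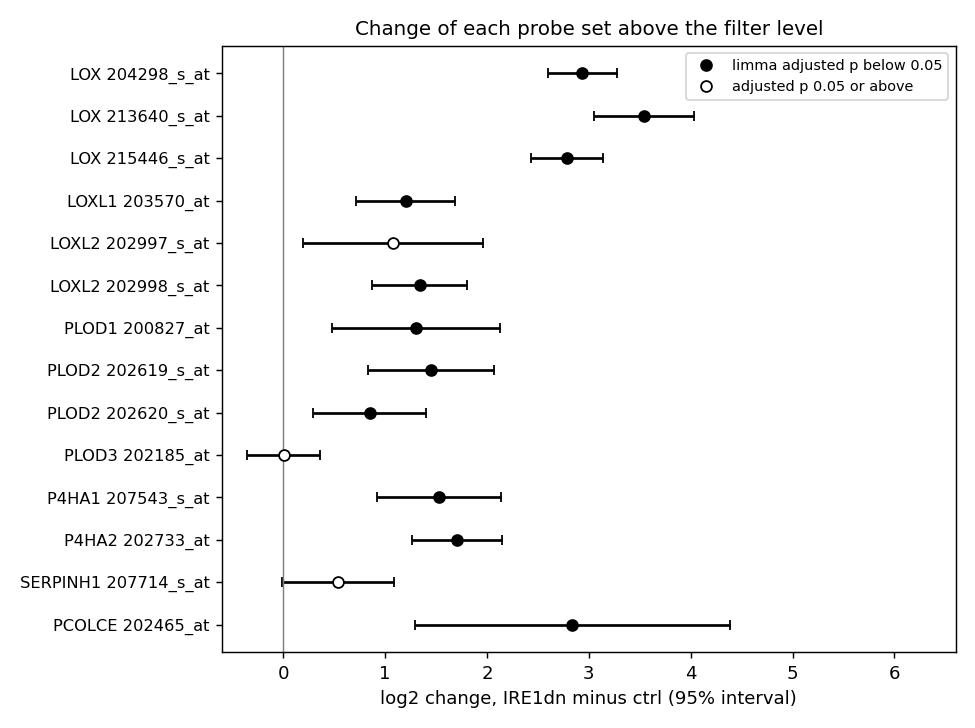
Log2 change, IRE1dn minus ctrl, with its 95% interval from limma for each of the 14 probe sets above the filter level; filled points have an adjusted p below 0.05. The 3 LOX probe sets lay between 2.78 and 3.54, and the open points are 1 LOXL2 probe set, PLOD3 and SERPINH1.

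Of the 15 probe sets, 14 passed the filter on mean signal, all of them with every array above the filter level, and 11 of the 14 rose in the limma fit over 12069 probe sets. Among all 12069 probe sets 31.2% passed in either direction and 17.0% rose. The other 3 were PLOD3, SERPINH1 and the dimmer LOXL2 probe set. The IRE1dn arrays lay wholly above the ctrl arrays for 8 of the 10 genes, against 26.0% of all tested genes.

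Genes of one family were compared by the difference of their log2 signals within each array. The log2 change of LOX exceeded that of LOXL1 by 1.58 and that of LOXL2 by 1.44 in value, without overlap between the groups. The change of PLOD2 exceeded that of PLOD3 by 0.84, and the change of PLOD1 exceeded it by 1.30, again without overlap. Each of these 4 differences had an exact two-sided permutation p of 0.1, the smallest that 3 against 3 arrays allows, and 0.175 after adjustment over the 7 pairs compared. PLOD2 changed by -0.46 relative to PLOD1 on their main probe sets (exact permutation p = 0.2, adjusted 0.28), but its other probe set had a larger change than PLOD1 in value, 1.45 against 1.30. P4HA2 differed from P4HA1 by 0.18 (exact permutation p = 0.6, adjusted 0.7) and LOXL2 from LOXL1 by 0.14 (exact permutation p = 0.9, adjusted 0.9), and in all 3 pairs the arrays of the groups overlapped. The SD of these within-array differences was 0.05 to 0.33 among IRE1dn arrays and 0.34 to 0.82 among ctrl arrays (n = 3 each), and a test of this size could not pass a threshold of 0.05.

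The SD on the log2 scale was larger among ctrl arrays than among IRE1dn arrays for 8 of the 10 genes, and so it was for 70.9% of all tested genes. The median SD of the 10 was 0.15 among IRE1dn arrays and 0.45 among ctrl arrays, against 0.17 and 0.29 over all tested genes. LOX and SERPINH1 were the 2 of the 10 with the larger SD in IRE1dn cells, on their main probe sets. Ctrl array 2 was the lowest ctrl array for 9 of the 10, all but SERPINH1, where over all tested genes it was lowest for 26.4%. Ctrl array 3 was the highest for 8, all but LOXL1 and SERPINH1, against 34.1% over all tested genes. Ctrl arrays 1, 2 and 3 lay at a median of -0.02, -0.44 and 0.36 from the ctrl mean over the 10 genes. A list of 9 tested HIF target genes, given for reference, lay at -0.04, -0.23 and 0.44 on the same arrays. The 6 tested fibrillar collagen chains lay at 0.40, -0.30 and -0.12, in another order, and 10 tested partners in collagen modification at -0.17, -0.09 and 0.25. On IRE1dn arrays 1, 2 and 3 the 10 genes lay at 0.07, -0.05 and -0.03 from the IRE1dn mean. The HIF targets lay at -0.13, 0.0012 and 0.13 there, in another order than the 10 genes. Whether what sets the ctrl arrays apart plays a part in the changes was not tested.

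**Figure D3:**
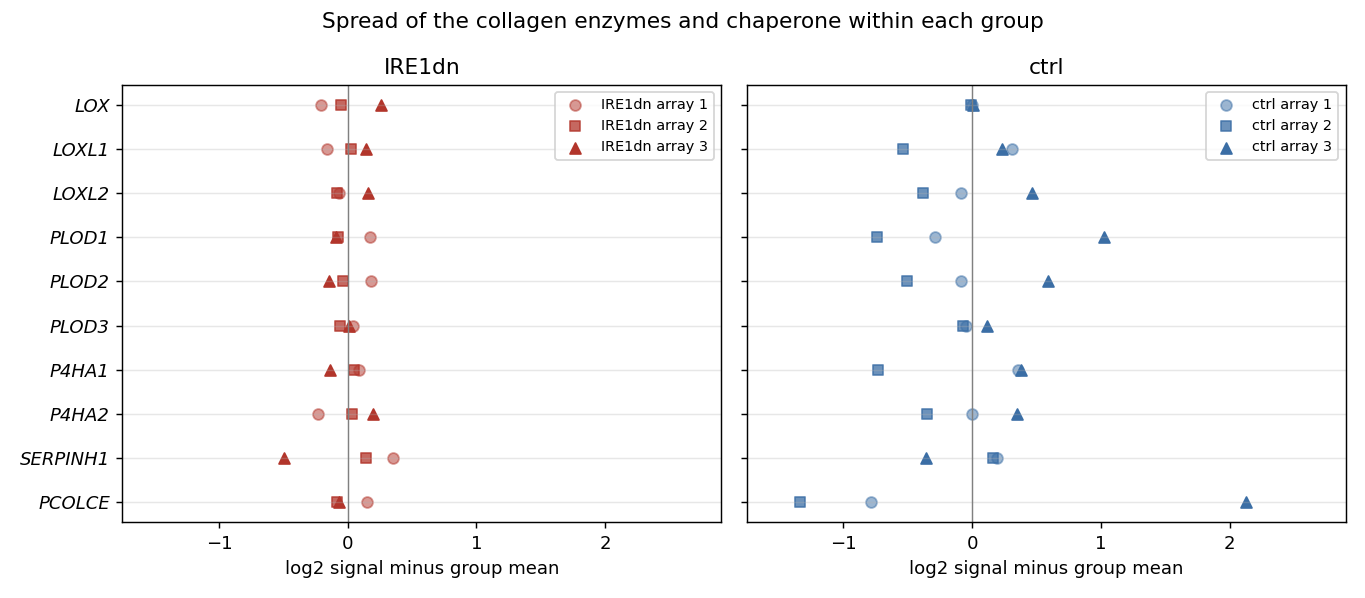
Log2 signal of each gene on each array minus the mean of its group, for the main probe set; IRE1dn arrays are on the left and ctrl arrays on the right. Ctrl array 3 lay 2.12 above the ctrl mean for PCOLCE and 1.03 above it for PLOD1, and the IRE1dn arrays stayed within 0.5 of their mean.

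Other parts of the collagen pathway were read from lists of related genes, whose counts stand beside 17.9% higher and 16.5% lower over all tested genes. Of 10 tested partners in collagen modification, 4 rose and 1 fell (median change 0.23 on the log2 scale), while P4HA3, LOXL3 and LOXL4 had no probe set of their own in the annotation used. P3H2, a prolyl 3-hydroxylase, rose by 1.41 (SE 0.34; limma adjusted p = 0.011), with 121 ± 13.7 units in IRE1dn cells and 48.4 ± 23.5 units in ctrl cells (SD, n = 3 each). P4HB, the protein disulfide isomerase that is the beta subunit of prolyl 4-hydroxylase, rose by 0.95 (SE 0.22; limma adjusted p = 0.0094). The second P4HB probe set overlapped between groups, and the mean of both did not pass (0.57; limma adjusted p = 0.065). COLGALT1, which adds galactose to hydroxylysine, rose by 0.82 (SE 0.24), and P3H1, the prolyl 3-hydroxylase of the CRTAP and cyclophilin B complex, rose by 0.71 (SE 0.23), with limma adjusted p of 0.026 and 0.039. FKBP14, a prolyl isomerase of the endoplasmic reticulum, fell by 0.65 (SE 0.20; limma adjusted p = 0.032). The 5 that did not pass included both partners of P3H1: CRTAP changed by -0.13 (SE 0.19) and PPIB, cyclophilin B, by 0.03 (SE 0.16).

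Of 9 tested genes of procollagen export, 0 rose and 2 fell in limma (1 and 2 at an unadjusted p below 0.05), with a median of -0.05. Over all tested genes 17.9% rose and 16.5% fell, and these counts are not read as a result about the list. SAR1B, a COPII coat GTPase, fell by 1.16 (SE 0.20; limma adjusted p = 0.0026) to 186 ± 12.8 units in IRE1dn cells, against 426 ± 109 units in ctrl cells (SD, n = 3 each). SEC24D, the COPII cargo adaptor needed for procollagen, fell by 0.97 on its brightest probe set (SE 0.24; limma adjusted p = 0.012), while the mean of its 3 probe sets, of which the other two were below 5 units, changed by 0.024. BMP1, the C-proteinase that PCOLCE assists, rose by 0.69 (SE 0.21; limma adjusted p = 0.031), and the enhancer PCOLCE2 changed by 0.34 (SE 0.32; limma adjusted p = 0.44). These were the 2 tested genes of 6 on the array in the list of propeptide processing.

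The fibrillar collagens, the substrates of these enzymes, were mostly higher. Of 6 tested fibrillar chains, 4 rose and COL11A2 did not pass, while COL3A1 passed the filter through the IRE1dn arrays alone and is given only by its signals. Elastin and 3 other chains lay under the filter level. COL5A1 rose by 4.08 (SE 0.22), COL1A1 by 3.94 (SE 0.50), COL5A2 by 3.09 (SE 0.18) and COL1A2 by 1.69 (SE 0.29), with limma adjusted p of 0.0024 or lower. COL3A1 had 43.7, 51.6 and 46.9 units in IRE1dn cells, against 6.01, 4.06 and 3.88 units in ctrl cells. COL1A2, the partner chain of COL1A1 in type I collagen, averaged 4119 ± 1159 units in IRE1dn cells and 1308 ± 487 units in ctrl cells (SD, n = 3 each). The value of COL1A1 depended on its probe sets, of which 1 of 4 was dim and overlapped between groups (2.50 for the mean of all), and on ctrl arrays 1 and 2 (4.59 and 3.33 without them). The mean of both COL1A2 probe sets rose by 2.31.

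Genes that handle the cofactors moved in both directions. Of 6 tested genes of copper and ascorbate supply, 1 rose and 3 fell, beside 17.9% and 16.5% of all tested genes, with a median of -0.47. ATOX1, the chaperone that hands copper to the secretory pathway pumps, fell by 0.97 (SE 0.18; limma adjusted p = 0.0034) to 360.2 ± 51.7 units in IRE1dn cells, against 710.4 ± 116 units in ctrl cells (SD, n = 3 each). SLC31A2, a copper transporter homologue, fell by 1.00 (SE 0.19; limma adjusted p = 0.0043) and CCS, the copper chaperone of superoxide dismutase, fell by 0.71 (SE 0.23; limma adjusted p = 0.037). ATP7A, the pump that loads copper onto lysyl oxidases, did not pass (0.69, SE 0.29; limma adjusted p = 0.094). SLC23A2, an ascorbate transporter, rose by 1.02 (SE 0.30; limma adjusted p = 0.026).

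Most tested HIF targets outside the collagen pathway rose too. Of 9 tested, 7 rose and 0 fell, beside 17.9% higher and 16.5% lower over all tested genes. At an unadjusted p below 0.05 in limma the counts were 8 and 0, and the median change was 1.51. The 6 largest were NDRG1, which rose by 2.26 (SE 0.40), SLC2A1, a glucose transporter, by 2.23 (SE 0.28), the peptide ADM, by 2.11 (SE 0.32), BNIP3, a mitophagy receptor, by 1.75 (SE 0.28), the kinase PDK1, by 1.51 (SE 0.26), and KDM3A, a histone demethylase, by 1.12 (SE 0.18). Their limma adjusted p was 0.0029 or lower. VEGFA did not pass (0.16, SE 0.15; limma adjusted p = 0.43), and on its other probe sets the groups overlapped. EGLN3 lay under the filter level on all 6 arrays, and CA9 and ANKRD37 had no probe set of their own in the annotation used. Calls of 7 other list genes named above ended when single arrays were left out: P3H1, COLGALT1, FKBP14, BMP1, SLC23A2, CCS and SEC24D. Without the filter the calls of P3H1, SLC23A2, CCS and BMP1 also ended (limma adjusted p of 0.056, 0.055, 0.058 and 0.060).

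**Figure D4:**
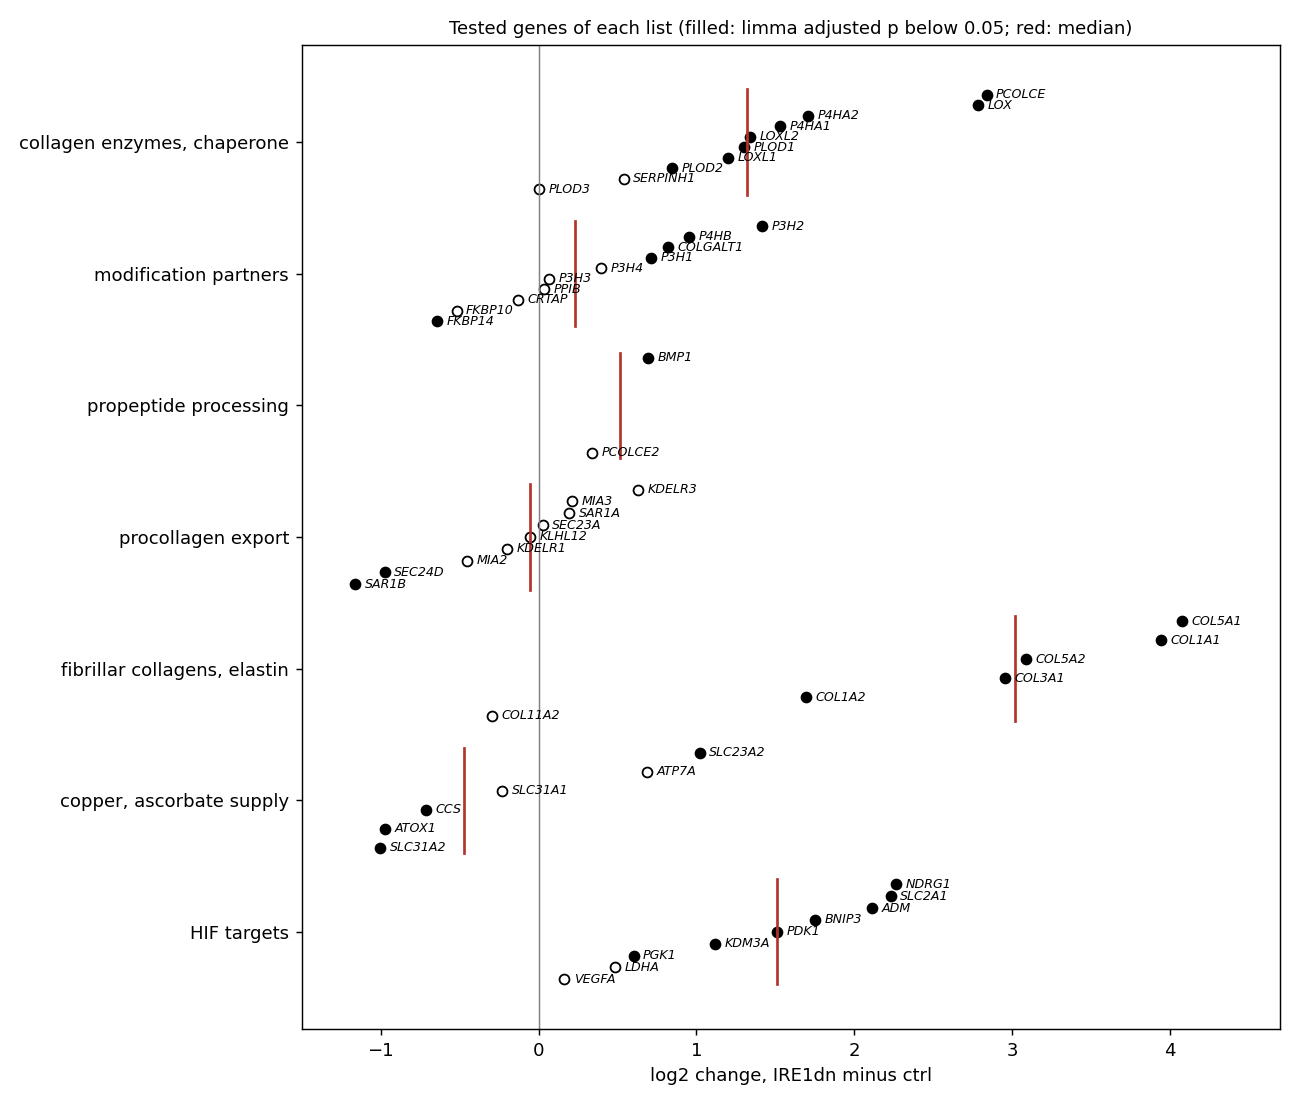
Log2 change, IRE1dn minus ctrl, of every tested gene in each list; filled points have a limma adjusted p below 0.05 and red bars mark list medians. The collagen enzymes and chaperone had a median of 1.32 and procollagen export -0.05; the bar of the fibrillar chains includes COL3A1, which passed the filter through the IRE1dn arrays alone.

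The genes nearest in pattern were found as the smallest root mean square distance between centred log2 signals over the 6 arrays. They were sought around PCOLCE, whose change was the largest on the main probe sets and with all arrays, although it had the widest error and LOX changed by 2.94 and 3.54 on its other probe sets. The nearest were TNFRSF11B, at 0.31, MYO1D, at 0.32, and FPR1, at 0.39 log2 units, where the median over 7177 genes was 1.79. Around PLOD3, the gene with the smallest change, they were HARS2, at 0.02, DERL1, at 0.04, and PTDSS2, at 0.05, with a median of 0.36 over the same genes.

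The arrays and their markers bear on all these values. Signals had been scaled to the same trimmed mean on each array, with medians of 18.9 to 20.9 units in IRE1dn cells and 18.4 to 19.0 units in ctrl cells. Correlations of log2 signals were 0.974 to 0.979 among IRE1dn arrays, 0.959 to 0.967 among ctrl arrays and 0.930 to 0.951 between groups. The ACTB ratio, a sign of RNA quality, was 1.09, 1.21 and 1.64 on the IRE1dn arrays and 1.21, 1.16 and 1.19 on the ctrl arrays. The GAPDH ratio was 0.89, 0.90 and 0.94 on the IRE1dn arrays and 0.92, 0.91 and 0.87 on the ctrl arrays. Without IRE1dn array 3 the calls of PLOD1 and PLOD2 ended, that of SERPINH1 was gained and the other 6 held. Of the glioma markers VIM, CD44 and NES were tested, each on its brightest probe set, and none passed, also at an unadjusted p below 0.05 in limma. The summed signal of the list was 4424 to 7011 units in IRE1dn cells and 4302 to 4591 units in ctrl cells. GFAP, S100B, OLIG2 and SOX2 lay under the filter level in their means. OLIG2 had 15.1, 24.9 and 9.20 units in ctrl cells, above that level on ctrl arrays 1 and 2, and 2.34, 3.45 and 4.46 units in IRE1dn cells. Its log2 change was -1.74 in a limma fit without the filter (adjusted p = 0.019), and on its other probe set the groups overlapped. CD44 has 8 probe sets, and 3 dimmer ones passed as lower in IRE1dn cells in a limma fit without the filter, with log2 changes of -0.67, -0.74 and -0.81 (adjusted p of 0.038, 0.025 and 0.018). NES lay under the filter level on ctrl arrays 1 and 2. Of 6 tested fibroblast markers, 4 (DCN, LUM, FAP and PDGFRB) rose, beside 17.9% of all tested genes. PDGFRA and S100A4 overlapped between groups and did not pass. THY1 lay under the filter level, with a log2 change of -0.57 in a limma fit without the filter (adjusted p = 0.44). Some ctrl arrays of DCN, LUM and PDGFRB lay under that level too. The summed signal of the 7 fibroblast markers was 1523 to 1840 units in IRE1dn cells and 167 to 289 units in ctrl cells. Their part in the result was not tested. Endothelial, immune and epithelial markers all lay under the filter level in their means, with summed signals of at most 26.9 units on the IRE1dn arrays and 37.1 units on the ctrl arrays.

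**Figure D5:**
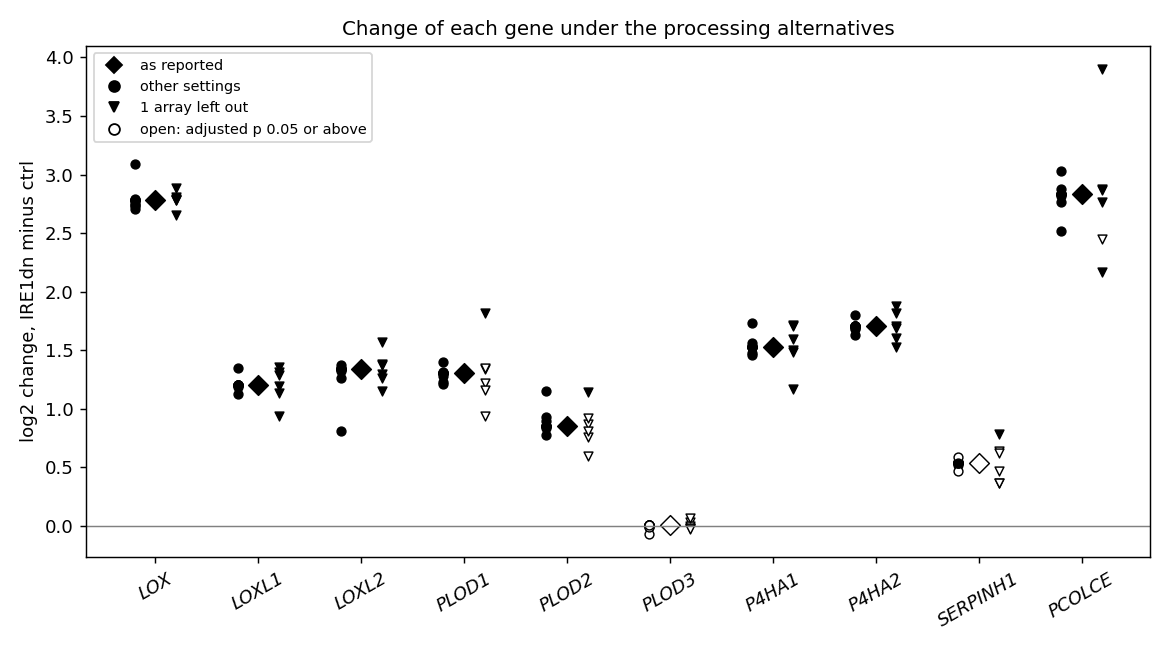
Log2 change of each gene as reported (diamonds), with other settings (circles) and with 1 array left out (triangles); open symbols have a limma adjusted p of 0.05 or above. LOX, LOXL1, LOXL2, P4HA1 and P4HA2 have filled symbols throughout, and PLOD1 and PLOD2 turn open when single arrays are left out.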

How the data were processed

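RNA of 6 U87 samples, 3 per group by their titles, was measured on 6 Affymetrix arrays. The deposited file holds 1 linear intensity per probe set and array, which the authors had scaled before deposit, as equal trimmed means show. The submitters' processing notes name GCOS 1.2, and no source used here gives the summarisation or background steps. The number of arrays limits the precision. Probe sets took their gene from the platform annotation: 19064 had 1 gene (19052 named through RefSeq GRCh38.p14), 1043 several and 2108 none listed, and 62 were controls. Signals were analysed as log2(signal + 1.75). Each gene was represented by its probe set of highest mean, genes above the 40th percentile of means (13.0 units) were tested with limma 3.58.1 in R 4.3.3 (intensity trend, two-sided, threshold 0.05), and a second fit took all 12069 probe sets above that level. The test was checked on simulated data. Named genes were all 10 genes, up to 6 passing genes of each list with the largest changes, the fibrillar chains and the 3 nearest in pattern; CRTAP, PPIB, PCOLCE2, ATP7A, VEGFA and the markers were named after their values were seen. Genes and lists were chosen with earlier results of these data known. Same-numbered arrays were checked for pairing: correlations of their deviations from the group means were -0.10, 0.06 and 0.02, so the numbers were not taken as pairs. Results were recomputed with each array left out, with the replicate number as a block, and with changed pseudocount, filter, scaling, variance model and choice of probe set.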

Additional observations from a re-analysis of the deposited data

How the results depend on the processing

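LOX, LOXL1, LOXL2, P4HA1 and P4HA2 kept their direction and their call under all 16 alternatives, with log2 changes of 2.65 to 3.09, 0.93 to 1.36, 0.81 to 1.57, 1.16 to 1.73 and 1.53 to 1.88. The number of the 10 genes that passed was 5 to 8 with 1 array left out (5 without ctrl array 1, 8 without ctrl array 3) and 8 under every other alternative except the replicate block, where it was 9. Of the probe sets of the 10 genes, 8 to 12 passed. PLOD3 turned to -0.0098 with quantile normalization, -0.068 with equal medians and -0.011 with array weights (-0.014 in the fit over probe sets), and lay between -0.029 and 0.062 with 1 array left out. SEC24D turned to 0.024 with the mean of its probe sets. Of all tested genes, 1440 to 2663 passed with 1 array left out against 2468 with all (748 to 1403 higher and 692 to 1260 lower), and 2091 to 3923 of the probe sets against 3768; the lowest counts came without IRE1dn array 2, and 1500 genes passed without IRE1dn array 3. Of the 2468 genes 52.0% were higher in IRE1dn cells, but 44.5% of those passing with equal medians, where the median of all genes moved to -0.06. With 1 array left out, P4HA2 minus P4HA1 lay between -0.0012 and 0.37 and LOXL2 minus LOXL1 between -0.057 and 0.26, with the lowest value of both without ctrl array 1. With the replicate number as a block 2276 genes passed, and apart from SERPINH1 (0.54; limma adjusted p = 0.046, but 0.0532 in the fit over probe sets) it changed no call of the 10 genes; among the list genes BMP1 lost its call. Among 23 named genes of the lists, 327 of 364 alternative values kept direction and call, 36 lost the call and 1 reversed. The cause was not tested in any of these cases. A fit with 1 array fewer has less power, so a call can end while the value hardly moves.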
